A study of Mus musculus with 36 samples.

Results

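Of the 20213 consensus H2A.Z peaks of the mouse hippocampus, 761 were distal peaks on H3K4me1 alone. They were chosen by position and marks only: more than 1000 bp from the start of the nearest NM transcript, overlap with a region of H3K4me1, no overlap with H3K27ac, H3K4me3 or H3K27me3, and no entry in the column that flags poor mappability. Distances to NM starts run from the centre of the peak, so the edge of a wide peak can lie closer. No H2A.Z difference between groups entered this rule. The consensus peaks were themselves called on these H2A.Z libraries, so a peak could enter through the group where it was high. The distance left 8009 peaks, H3K4me1 left 4854, and the removal of H3K27ac, H3K4me3 and H3K27me3 left 2906, 1407 and 766 in turn. The last step removed poorly mappable peaks.

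All mice were C57BL/6J, without a transgene or drug in the labels, and the tissue was whole hippocampus. Young mice were 2.5 months old and old mice 15.5 months. At each age, mice were either naive or fear conditioned in 1 training session with foot shocks, and the brains of conditioned mice were frozen 30 min after training. H2A.Z chromatin immunoprecipitation and RNA sequencing each gave 12 libraries, 3 for each of the 4 groups. The labels do not say whether the libraries of a group came from separate animals, so p-values measure the spread between these libraries, which may be technical. The column headings of the H2A.Z table code the groups by letters, N was read as naive, and T was read as conditioned because no other group was left.

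H2A.Z is a variant of histone H2A that chromatin remodellers of the SRCAP and EP400 families place at promoters and enhancers. Enhancers carry H3K4me1, written by the methyltransferases KMT2C and KMT2D, and active enhancers add H3K27ac, written by CBP and p300. A region with H3K4me1 and no H3K27ac is by convention called a primed or poised enhancer, one that is marked and not in full use. In the hippocampus, neuronal activity and learning induce early genes whose promoters and enhancers carry H2A.Z.

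The mark regions came with the authors' table, and the tissue and age they were measured in are not stated in what was used here. The name enhancer was not borne out by position for every member. By the authors' annotation, 337 members (44.3%) were exonic, 244 (32.1%) intergenic, 123 (16.2%) intronic and 57 (7.5%) in other classes such as upstream, downstream, untranslated or noncoding RNA. Among the 392 distal peaks with both H3K4me1 and H3K27ac, 11.2% were exonic, and among the 2601 distal peaks without any of the 4 marks 16.1%. The share was 40.9% among the 788 distal peaks with H3K27me3 and no H3K4me3, and 50% among all peaks. They are therefore called H3K4me1-only peaks here.

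Members lay next to other marks as well as apart from them. An H3K27ac region lay within 1 kb of 158 members, with a median gap of 5014 bp over all members, and an H3K4me3 region within 1 kb of 92. The 761 peaks fell in 740 H3K4me1 regions with a median width of 1300 bp, and 526 lay wholly inside one. Their own median width was 529 bp. The median distance to the nearest NM start was 15206 bp, from 1029 bp at Clec11a to 756448 bp, and 468 members lay inside their nearest gene. Another 138 peaks with the same marks lay within the 1000 bp limit. The members nearest to the limit were the peaks of Clec11a, Pigyl at 1037 bp and Hspb7 at 1052 bp. Among the excluded peaks, those of 4933422H20Rik at 998 bp and Epha4 at 997 bp lay nearest to it.

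The rule measured distance to protein-coding starts only, so other start sites could remain. Counting noncoding and alternative starts, 92 members had some annotated start within 1 kb. For RefSeq starts this gap was taken from the edge of the peak, so the nearest NM start could itself count. Of the members, 23 overlapped a promoter window of RefSeq, the stretch from 250 bases before to 50 after a start on assembly GRCm38.p6. Among these 23 peaks, 6 were past the authors' FDR threshold of 0.05 for less H2A.Z after training in young mice, beside 12.5% of all 761 members and 13.2% of all peaks. The part of each peak that lies within the 250 bases before such a start is printed below, 5′ to 3′ on the strand of the transcript, and peaks that reach farther are shown only in that part, because these are the members whose DNA is held in the files used here. Capitals mark a match to an E-box (CAGATGG or CAGCTG) or to a SOX motif (ACAATGG) on either strand.
Abr, own internal start, chr11:76509493-76509669 (- strand): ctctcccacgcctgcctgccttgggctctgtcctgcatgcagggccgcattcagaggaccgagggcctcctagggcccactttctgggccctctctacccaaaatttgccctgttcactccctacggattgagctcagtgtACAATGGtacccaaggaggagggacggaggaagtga
Rbms3, own internal start, chr9:117252497-117252733 (- strand): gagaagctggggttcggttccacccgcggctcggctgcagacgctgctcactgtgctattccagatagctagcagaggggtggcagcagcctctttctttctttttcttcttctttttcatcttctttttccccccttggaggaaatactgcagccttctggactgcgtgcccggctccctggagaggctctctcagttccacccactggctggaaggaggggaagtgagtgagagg
Smad5, start of Gm33019, chr13:56682509-56682603 (+ strand): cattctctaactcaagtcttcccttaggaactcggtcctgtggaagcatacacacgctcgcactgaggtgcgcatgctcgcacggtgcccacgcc
Ntrk2, start of Gm53063, chr13:59073715-59073964 (- strand): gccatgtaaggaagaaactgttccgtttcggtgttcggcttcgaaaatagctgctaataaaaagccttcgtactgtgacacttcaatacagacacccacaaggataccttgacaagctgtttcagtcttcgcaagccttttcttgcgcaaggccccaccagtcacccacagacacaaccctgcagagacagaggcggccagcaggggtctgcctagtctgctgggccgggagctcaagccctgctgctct
Umodl1, start of Gm41562, chr17:30945535-30945784 (+ strand): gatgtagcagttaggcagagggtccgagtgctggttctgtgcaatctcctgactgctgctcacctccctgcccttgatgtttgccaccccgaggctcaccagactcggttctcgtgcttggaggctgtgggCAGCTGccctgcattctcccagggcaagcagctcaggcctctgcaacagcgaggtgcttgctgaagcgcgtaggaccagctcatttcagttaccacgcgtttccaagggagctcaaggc
Uaca, start of Gm33699, chr9:61031981-61032065 (+ strand): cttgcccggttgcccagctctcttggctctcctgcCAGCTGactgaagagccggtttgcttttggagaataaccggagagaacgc
The start in Abr, a regulator of small GTPases, and the start in Rbms3, an RNA-binding protein, are internal starts of those genes, and the others belong to noncoding RNAs. Smad5 transduces BMP signals, Ntrk2 encodes the BDNF receptor TrkB, and Umodl1 and Uaca were named as nearest genes only. For contrast, the member with the highest H2A.Z level in young naive mice lay at a noncoding start beside Tle3, a Groucho-type corepressor. A member inside Dlgap3, a scaffold protein of the postsynaptic density, lay in an exon and had a small positive difference in the authors' deposited table, 0.77 in young and 0.75 in old mice on the log2 scale.
Tle3, start of Gm34157, chr9:61370491-61370740 (- strand): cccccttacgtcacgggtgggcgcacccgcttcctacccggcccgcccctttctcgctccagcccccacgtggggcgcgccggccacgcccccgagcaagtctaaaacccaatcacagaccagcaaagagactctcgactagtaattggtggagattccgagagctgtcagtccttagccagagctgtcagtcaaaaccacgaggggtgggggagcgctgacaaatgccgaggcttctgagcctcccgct
Dlgap3, start of Gm52707, chr4:127233563-127233812 (- strand): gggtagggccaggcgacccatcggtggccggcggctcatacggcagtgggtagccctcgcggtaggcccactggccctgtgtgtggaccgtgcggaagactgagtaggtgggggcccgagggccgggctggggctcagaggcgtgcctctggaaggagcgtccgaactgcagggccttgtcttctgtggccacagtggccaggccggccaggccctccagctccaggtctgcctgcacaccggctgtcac
The Tle3 and Dlgap3 stretches held no match to any motif searched. Of the 23 whole windows, 9 held an E-box against 20.7% of all 32851 RefSeq windows of 300 bases. The CTCF core was found in 2 (1.87% of all), and AP-1 (TGANTCA, 7.81% of all), EGR (GCGTGGGCG or GCGGGGGCG, 3.47%) and SOX (3.66%) in 1 each. CRE (TGACGTCA, 1.79% of all windows), MEF2 (0.274%), RFX (0.128%) and NFI (0.0365%) were found in 0. The median GC content was 58.7% in the 23 windows and 52.7% in all, with a median of 11 and 7 CpG. These letters describe the windows and say nothing about which factors bind there.

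H2A.Z values are those of the authors' deposited table, which gives for each peak a log2 concentration per group, the mean normalised reads of its 3 libraries, a log2 fold with its p-value and FDR, and the number of libraries in which the peak was called. The table holds no value per library, so error is given as a standard error implied by the fold and its p-value. Folds are written as conditioned minus naive, or old minus young. Levels at H3K4me1-only peaks were modest, with medians of 4.61 in naive and 4.12 in conditioned young mice and 4.94 and 4.39 in old mice on the log2 concentration scale. In young mice the difference of the levels equals the deposited fold. In old mice the deposited training fold was 0.22 above the difference of the levels at every peak, and the folds for age were 0.33 and 0.12 below it in naive and conditioned mice, so old levels are given beside the folds and directions are read from the folds. Over all peaks the young naive median was 6.25. A member was called on average in 1.22 of the 3 young naive libraries and in 1.14, 1.59 and 1.39 of the young conditioned, old naive and old conditioned libraries.

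In young mice, training was accompanied by lower H2A.Z at a minority of H3K4me1-only peaks and by higher H2A.Z at 1. Past the authors' FDR of 0.05, 95 members were lower in conditioned mice, 12.5% of 761, where 13.2% of all 20213 peaks were lower. Kank2 alone was higher, where 0.109% of all peaks were. The members' share of lower peaks was thus close to the background of the whole table. Their median log2 difference was -0.48 (quartiles -1.35 and 0.29), beside -0.57 over all peaks, and 67.7% of members were below 0. Set against the median of all peaks, the members' median was 0.09, so the direction of the median depends on where 0 is placed. The median implied standard error was 0.75 for members and 0.53 for all peaks, on the log2 scale.

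The difference followed the annotation of the peak, a split made after the values were seen. Intergenic members had a median log2 difference of -1.13, with 57 of 244 past FDR 0.05 and lower, 23.4%. Exonic members had a median of 0.03, with 10 of 337 lower, 2.97%, and the 1 higher peak. Among the 51 exonic members called in 3 libraries of a group, a choice made on the same reads, the median was -0.24. Intronic members lay between, with a median of -0.56 and 16 of 123 lower. The median of intergenic members remained below that of exonic members when H3K27ac lay within 1 kb (intergenic -1.04, exonic -0.10) and when it did not (-1.14 and 0.07).

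The same order was found within classes of level and of distance. Split into 3 equal classes by the mean level of the 4 groups, in the lowest class, the intergenic median was -1.85 and the exonic 0.15. In the highest class the values were -0.75 and -0.03. The conditioned levels that make the fold also enter this mean, so a deep fall moves a peak toward the lowest class. The split by level is therefore no check that is free of the fold. Within 1 to 10 kb of a start the intergenic median was -1.53 and the exonic 0.15, and beyond 50 kb they were -1.0 and 0.17. Without the 92 members that had some annotated start within 1 kb, they were -1.10 and 0.03. The table offers no test of the difference between these classes, because it holds no values per library and peaks are not replicates.

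**Figure D1:**
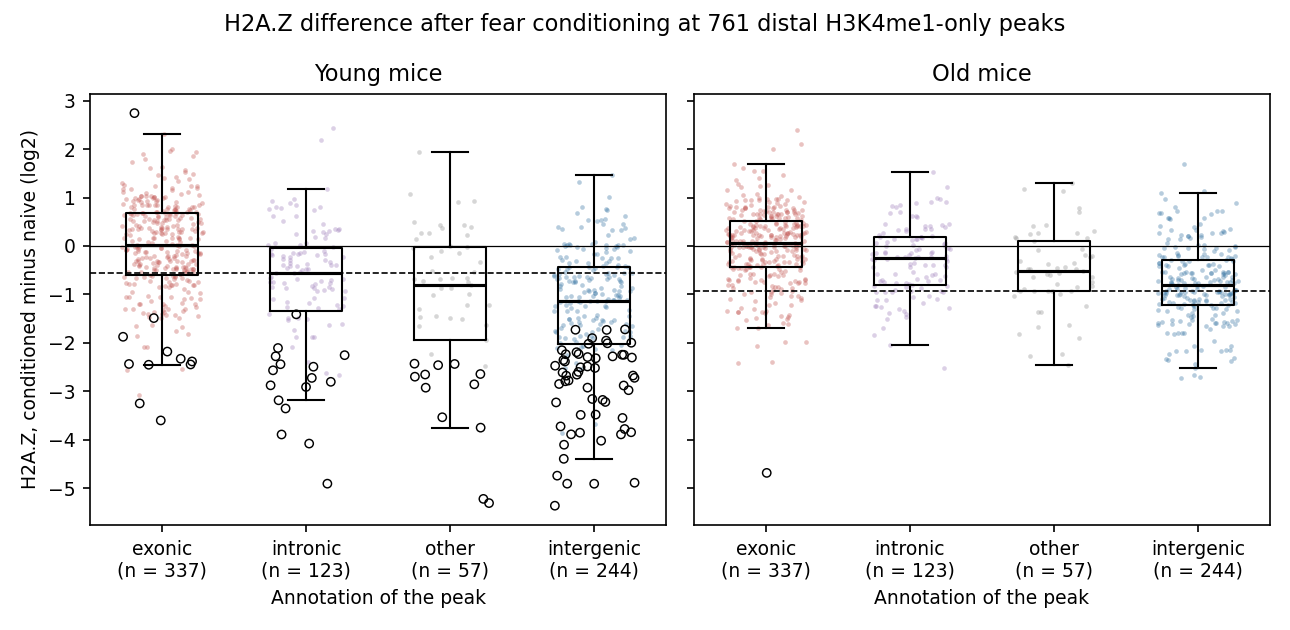
Log2 difference in H2A.Z, conditioned minus naive, of each of the 761 peaks by annotation class in young (left) and old mice (right). Boxes show quartiles and median, whiskers reach the last point within 1.5 box lengths, open circles are peaks past FDR 0.05, and the dashed line is the median of all 20213 peaks (-0.57 in young, -0.93 in old). Intergenic peaks lie lowest in both ages and exonic peaks around 0.

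Other distal classes were compared by the same summary. Distal peaks with both H3K4me1 and H3K27ac had a median of -1.05 in young mice, with 81 of 392 lower past FDR 0.05, and their exonic and intergenic medians were -0.61 and -1.27. Distal peaks with H3K27me3 and no H3K4me3 had a median of -0.34, and their exonic and intergenic medians were 0.03 and -0.64. Distal peaks with no mark had a median of 0.29. The intergenic H3K4me1-only peaks were thus nearer in median to the H3K27ac-bearing class, and the exonic ones nearer to 0, although no test of these differences was possible. The intergenic median was below the exonic one in the H3K27ac-bearing and H3K27me3 classes too, so the gap is not particular to the members. Over all 20213 peaks, exonic and intergenic medians were -0.54 and -0.46. Exonic peaks of the whole table lay at a median of 204 bp from a start, unlike the distal members.

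The largest falls were at peaks whose H2A.Z in conditioned young mice was at or close to the lowest level of the table. The peak 13378 bp before Dlx3, a homeobox factor, at chr11:95106413-95107064 (mm10, intergenic), had levels of 4.98 in young naive and -0.38 in young conditioned mice in the authors' deposited table. The log2 difference there was -5.36 (implied SE 1.00, FDR 1.2e-05, the authors' deposited table). The peak of Ap5s1, a subunit of the AP-5 adaptor, at chr2:131204571-131205047, went from 5.17 to -0.14, a difference of -5.31 (SE 0.96, FDR 5.5e-06) in the authors' deposited table. At 2700060E02Rik, chr14:19839915-19840386, the authors' deposited table gave 4.84 and -0.38, a difference of -5.22 (FDR 3.3e-05). A level of -0.38 was the lowest any peak had in young conditioned mice and was shared by 483 peaks, of which 9 were members. A fold to that value depends on the floor and is no bound. All 3 peaks were called in 2 or 3 young naive libraries and in 0 young conditioned libraries.

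Of the other peaks lower past FDR 0.05, 5 were named after their values were seen. An intronic peak of Psen2, a catalytic subunit of gamma-secretase, at chr1:180250102-180250419, had 4.53 and -0.38 in young naive and conditioned mice in the authors' deposited table, again at the floor (FDR 0.00023). The intergenic peak 24007 bp from Psmd9, a proteasome assembly factor, had 5.84 and 1.95 (log2 difference -3.89, SE 0.71, FDR 7.6e-06, the authors' deposited table). It was called in 3 young naive and 0 young conditioned libraries. The authors' deposited table gave 5.01 and 2.03 at the peak 40190 bp from Bhlhe40, a repressor tied to the circadian clock (difference -2.98, SE 0.84, FDR 0.0066). Near Ddit4, an inhibitor of mTORC1 signalling, the levels were 5.20 and 2.42 (difference -2.78, FDR 0.0037, the authors' deposited table). In the 3′ untranslated part of Lif, a cytokine of the interleukin-6 family, they were 5.15 and 2.69 (FDR 0.012, the authors' deposited table).

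At the starts whose sequences are printed above, the peak of Uaca fell from 3.92 to 0.07 and that of Abr from 4.38 to 1.46 in the authors' deposited table. The authors' deposited table gave Rbms3 4.50 and 1.78, Smad5 4.57 and 1.96, Ntrk2 4.97 and 2.53, and Umodl1 5.70 and 3.97. The log2 differences ran from -3.85 at Uaca (FDR 0.012) to -1.73 at Umodl1 (FDR 0.038) in the authors' deposited table. All 6 were called in 0 young conditioned libraries. In the exon of Ache, the acetylcholinesterase, a peak with levels of 5.66 and 3.78 was called in 2 libraries of each group (difference -1.88, FDR 0.043, the authors' deposited table).

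The 1 member with more H2A.Z after training was an exonic peak of Kank2, an ankyrin-repeat regulator of the cytoskeleton, at chr9:21794549-21795669, 3437 bp into the gene. Its levels were 3.11 in young naive and 5.85 in young conditioned mice, a log2 difference of 2.74 (SE 0.88, FDR 0.021) in the authors' deposited table. It was called in 0 young naive and 2 young conditioned libraries. In old mice the same peak had levels of 5.4 and 5.2, with a fold of 0.02 on the log2 scale (FDR 0.99, the authors' deposited table). At FDR 0.01 no member was higher.

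Of the members with the highest levels in young naive mice, none passed the threshold. They were the peaks of Tle3 (7.44), Bcl11a (7.26), Foxn3 (7.09), Mex3a (7.01) and Zmiz1 (6.96) on the log2 concentration scale of the authors' deposited table. The centres of the Bcl11a, Tle3 and Zmiz1 peaks lay 1195, 1243 and 1542 bp from the NM start, little past the 1000 bp limit, and that of Mex3a 4292 bp. The Bcl11a and Tle3 peaks were 1670 and 1270 bp wide, so their near edges lay within 1000 bp of the start. The Foxn3 peak lay 113584 bp from Foxn3, at the start of the noncoding Gm26839. All 5 were called in 3 of 3 libraries in each of the 4 groups. Their young differences ranged from -0.92 at Foxn3 to -0.19 at Mex3a, and their old differences from -1.09 at Foxn3 to -0.60 at Zmiz1, in the authors' deposited table. Tle3, Bcl11a, Foxn3 and Zmiz1 encode transcriptional regulators and Mex3a an RNA-binding protein. The lowest levels were at Trak2 (1.31), Pcnxl3 (1.63) and Dst (1.88) in the authors' deposited table.

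**Figure D2:**
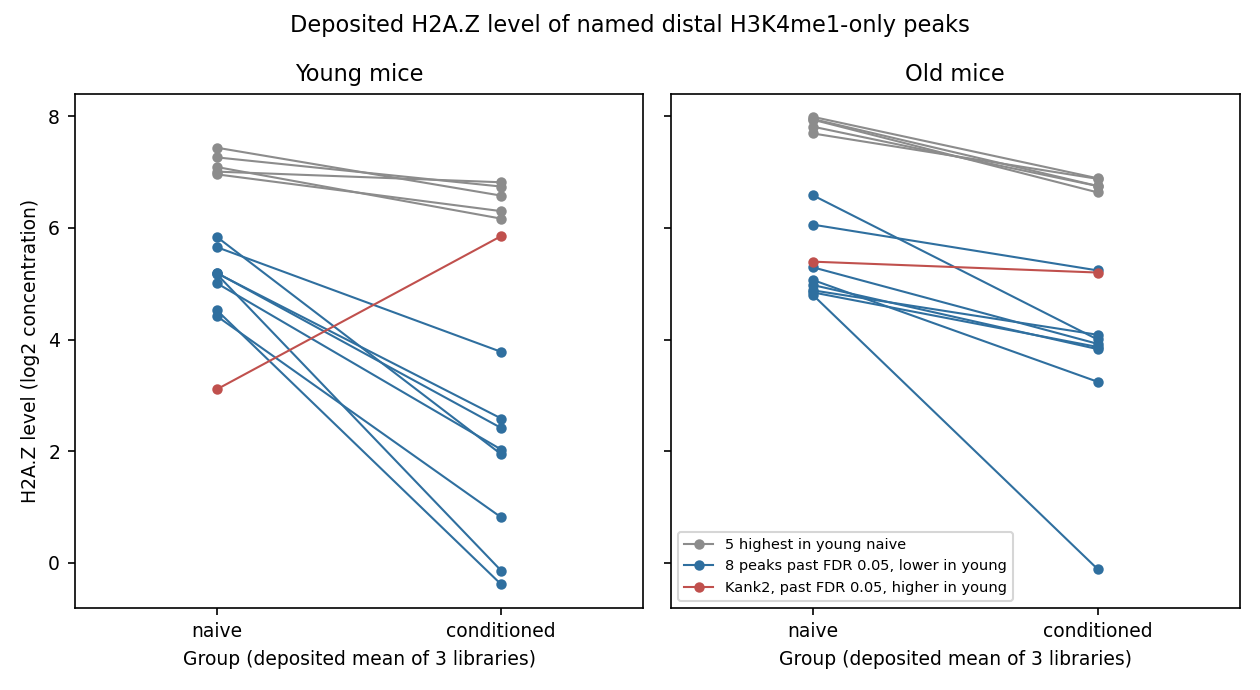
H2A.Z level, in log2 concentration as deposited, of 14 named peaks in naive and conditioned mice, young at left and old at right, each point the authors' mean of 3 libraries. The 5 highest peaks (grey) differ by -0.92 to -0.19 in young mice, the 8 peaks that were lower past FDR 0.05 in young mice (blue) reach 3.78 at most in conditioned young mice, and Kank2 (red) runs the other way in young mice. In old mice the deposited folds are 0.22 above the differences drawn.

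The 95 peaks that were lower in young mice belonged to 95 nearest genes. Their median difference was -2.68 (range -5.36 to -1.41), and their median levels were 5.00 in young naive and 2.10 in young conditioned mice. Of them, 78 were called in 2 or 3 young naive libraries, and 85 in no young conditioned library. By class, 57 were intergenic, 16 intronic, 10 exonic and 12 other. They were selected by their difference in young mice, so these values only describe them.

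The number of libraries with a called peak moved in opposite directions in the 2 main classes. Among intergenic members, 19 of 244 were called in 0 young naive libraries and 99 in 0 young conditioned libraries. Among exonic members, 140 of 337 were called in 0 young naive libraries and 28 in 0 young conditioned libraries. The mean number of libraries rose from 0.872 to 1.37 at exonic members and fell from 1.6 to 0.836 at intergenic members in young mice. In old mice it was 1.42 and 1.51 at exonic members and 1.77 and 1.20 at intergenic members, naive and conditioned. These numbers come from the same reads as the levels and are no separate evidence.

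**Figure D3:**
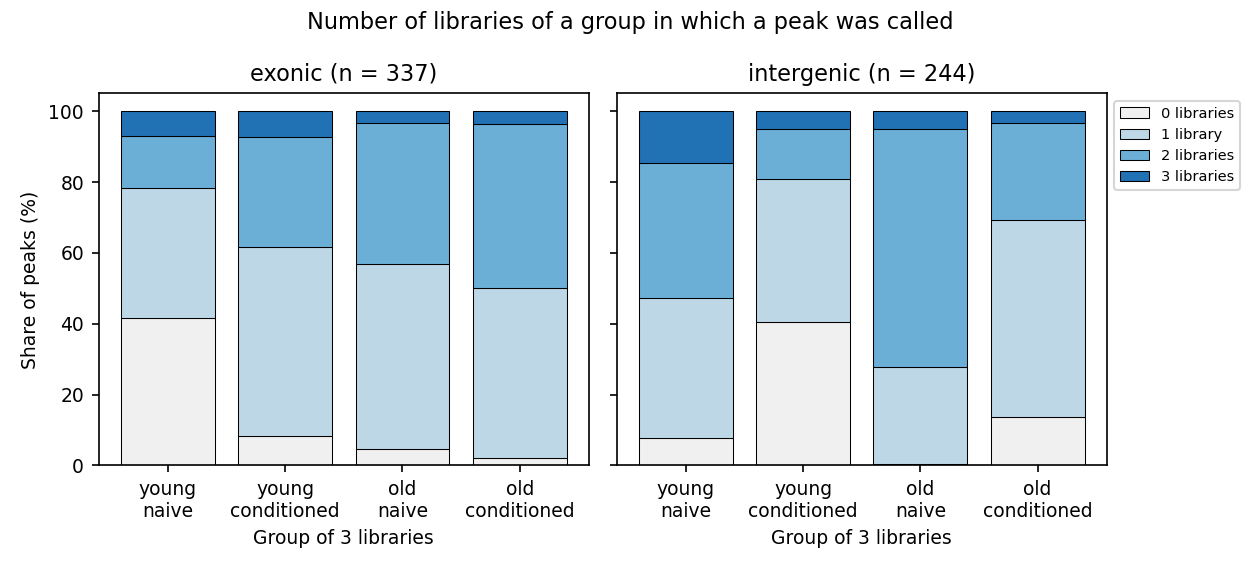
Share of exonic (left) and intergenic (right) H3K4me1-only peaks, in percent, that were called in 0, 1, 2 or 3 of the 3 libraries of each group. Intergenic peaks called in 0 libraries grow from 19 to 99 of 244 between young naive and young conditioned mice, while exonic peaks called in 0 libraries shrink from 140 to 28 of 337.

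In old mice the same comparison passed the threshold at 1 member. Tm4sf5, which encodes a tetraspanin-like membrane protein, had an exonic peak at chr11:70509876-70510329 with levels of 4.79 in old naive and -0.11 in old conditioned mice in the authors' deposited table. Its fold was -4.69 (SE 1.3, FDR 0.012) and it was also lower in young mice, by -3.60 (FDR 0.0081), in the authors' deposited table. The old conditioned level was the lowest of the table for that group. Thus 1 of 761 members was lower, 0.131%, where 10.6% of all peaks were, and 0 were higher, where 0.0396% of all peaks were. At an unadjusted p under 0.05, 19 of the 761 members were lower and 2 higher, where 30.1% of all peaks were under 0.05 in either direction. The median log2 difference of members was -0.30 (quartiles -0.92 and 0.26), beside -0.93 over all peaks, and against that median it was 0.63. Taken from the deposited levels instead of the folds, it was -0.52.

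The median implied standard error in old mice was 0.99 for members and 0.78 for all peaks. The annotation classes kept their order, with medians of -0.80 at intergenic, -0.24 at intronic and 0.06 at exonic members. Below 0 in old mice were 417 of the 761 members that were also below 0 in young mice, and 65 that were not. At intergenic members these were 191 and 15 of 244. Of the 95 peaks lower past the threshold in young mice, 94 were below 0 in old mice, with a median of -1.05 (range -4.69 to 0.21). Among them the Bhlhe40 peak had -1.6, Psmd9 -2.36, Abr -2.53 and Smad5 -2.37 in old mice, none past the threshold in the authors' deposited table. A test of the difference between the ages was not possible, since the deposited table has no interaction and no values per library.

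Over the 761 peaks, the young and old training differences shared their sign at 78.6%. Both were below 0 at 417 and both above 0 at 181, while 98 were lower in young and higher in old, and 65 the reverse. Spearman's rho was 0.68 and Pearson's r 0.64 across the 761 peaks. Within intergenic members rho was 0.47 (n = 244) and within exonic members 0.64 (n = 337). The 2 comparisons share no library, but the peaks share their position, sequence and depth in both, so the values are a description across peaks.

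**Figure D4:**
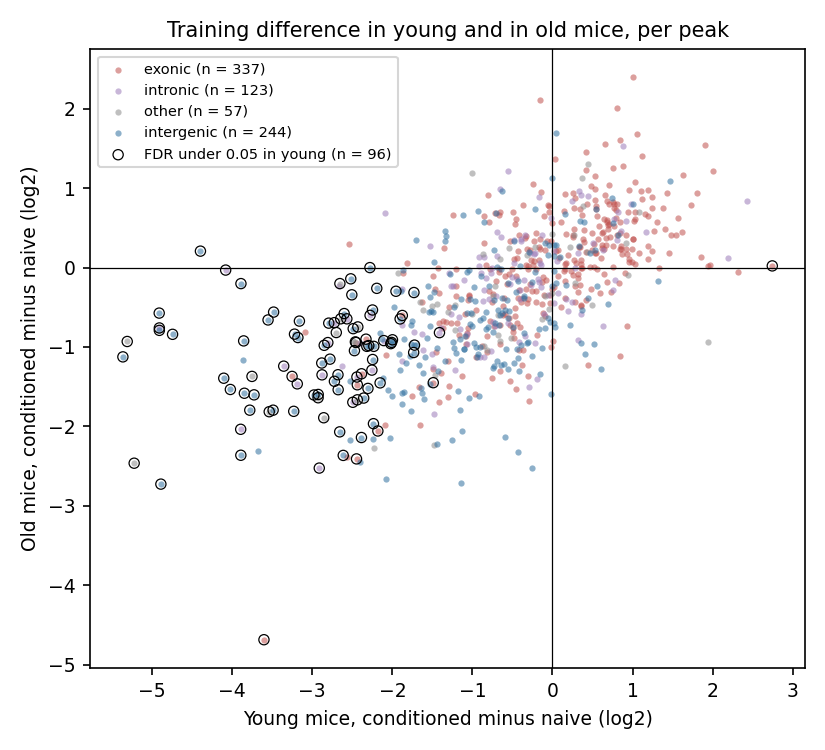
Log2 difference in H2A.Z, conditioned minus naive, in young mice (x axis) against old mice (y axis) for the 761 peaks, coloured by annotation class, with circles around the 96 peaks past FDR 0.05 in young mice. Most circled peaks lie in the lower left, and exonic peaks fill the upper right, where 181 peaks of all classes lie.

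Age was compared in naive and in conditioned mice, in each case with libraries that also enter a training comparison. No member passed FDR 0.05 in either, and neither did any of the 20213 peaks (0%). At an unadjusted p under 0.05 there were 9 members for age in naive mice and 7 in conditioned mice, beside 12.1% and 0.554% of all peaks. The median old minus young difference of members was 0.04 in naive and 0.18 in conditioned mice. It was 0.02 at intergenic and 0.08 at exonic members in naive mice, and 0.44 and 0.02 in conditioned mice. All peaks had medians of 0.33 and 0.09, so that in naive mice the members lay 0.29 below the median peak. The median implied standard error of single members was 0.72 in naive and 1.08 in conditioned mice.

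Several genes held clusters of members. In all, 660 genes were nearest to a member and 77 genes to 2 or more. Gse1, a component of a histone deacetylase complex, had 6, Tnrc18 and 1700001O22Rik had 5 each, and Apc2, Fam92b, Bcl11b and Macrod1 had 4 each. The 4 exonic peaks of Apc2, an APC-family protein of neurons, were all above 0 after training in young mice, at 0.29, 1.19, 1.01 and 1.40 in the authors' deposited table. In old mice the authors' deposited table gave them 0.87, 0.65, 0.58 and 0.49. None of these 8 values passed the threshold. The 5 peaks downstream of 1700001O22Rik were all below 0 in young and in old mice, from -1.24 to -0.26 in young mice in the authors' deposited table. At Tnrc18, the member in an exon had 0.80 and the peak 1185 bp before the start -1.93 in young mice in the authors' deposited table (FDR 0.11 for the latter). Its other members, all intergenic, had 0.15, -0.57 and -1.66 there. The young differences of Gse1 members were -0.63, 0.32, 0.35, 1.38, 0.65 and -0.06 in the authors' deposited table. Those of Fam92b, all intergenic, were -0.10, 0.32, -1.32 and 0.54. Bcl11b had 0.76, -0.86, -0.13 and -0.17, and Macrod1 -0.18, -2.63, 0.88 and -0.81. Signs were thus mixed within these genes, and none of these values passed the threshold. Peaks of 1 gene are neighbours on 1 stretch of chromatin and do not count as replicates.

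Of 46 early activity-regulated genes listed for this work, 5 were nearest to a member: Dusp5, Gadd45b, Klf10, Maff and Csrnp1. All 46 had some H2A.Z peak, and of the 14405 genes tested for RNA 575 were nearest to a member. Dusp5 encodes a nuclear phosphatase that switches off ERK, and its member lay 28701 bp before the start at chr19:53500296-53500936. In the authors' deposited table its levels were 5.19 in naive and 2.59 in conditioned young mice, and 4.88 and 4.09 in old mice. The young difference was -2.60 (SE 0.74, FDR 0.0076), and the old fold was -0.58 (FDR 0.71), in the authors' deposited table. The other 4 did not pass the threshold in young mice, with differences of -0.93 at Gadd45b, -0.31 at Klf10, -0.34 at Maff and 0.42 at Csrnp1 in the authors' deposited table. Fos, Fosb, Junb, Arc, Egr1, Npas4, Nr4a1, Bdnf, Homer1, Dusp1, Sik1 and Btg2 were nearest to no member.

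Of 43 genes of enhancer machinery, 3 were nearest to a member, beside 575 of the 14405 genes tested for RNA. Among them, Arid1b, a subunit of the BAF remodeller, had a peak with -1.07 (FDR 0.37) and Chd7, a remodeller of enhancers, an exonic peak with 1.02 (FDR 0.31) in the authors' deposited table. Among cell type markers, 1 of 7 for neurons, Rbfox3, and 1 of 6 for dentate and CA1, Fibcd1, were nearest to a member. Their young differences were 0.81 and 0.61 in the authors' deposited table (FDR 0.52 and 0.79). No marker of astrocytes, oligodendrocytes, microglia, endothelium or choroid plexus was nearest to a member. An H2A.Z peak of any kind was found for 3 of 6, 5 of 7, 1 of 5, 3 of 3 and 4 of 6 of these, in that order. So few genes do not assign the members to a cell type.

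RNA counts per library ran from 9410843 to 13350561, with 17017 to 17436 genes counted, and 14405 genes passed the filter on low counts. All 660 nearest genes were in the counts and 575 were tested. Neuronal markers summed to 8810 to 10699 CPM, counts scaled to a common library size, in every library and were present in all. Of the muscle and liver genes listed as not expected, Myh1, Alb and Apoa1 did not pass the filter. Acta1 of muscle did, at 2.01 to 4.86 CPM across libraries. The young naive library numbered 79 stood apart in early genes: it held the highest of the 3 young naive values at 32 of the 44 tested early genes, beside 38.1% of all genes. Fos, for one, had 10.2 CPM there and 2.44 and 2.81 in the other two young naive libraries, against 14.7 to 24.6 in young conditioned libraries. Choroid plexus markers ranged from 62.3 to 3126 CPM between libraries, 200 to 3126 in naive and 62.3 to 2212 in conditioned young mice, and 171 to 1852 and 71.0 to 162 in old mice. Their part in the RNA differences was not tested. In this bulk tissue, fewer cells of a type and less RNA per cell cannot be told apart.

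Genes nearest to H3K4me1-only peaks did not pass the test after training. By edgeR's quasi-likelihood test with Benjamini-Hochberg adjustment over all 14405 genes, 0 of 575 nearest genes were called in young mice, where 4 of all genes rose (0.0278%) and 0 fell. In old mice 0 were called, where 2 of all genes rose (0.0139%), and averaged over ages 0, where 11 rose (0.0764%). DESeq2 called 0 nearest genes at each age, and 1 higher and 1 lower averaged over ages, where 15 and 4 of all genes were. At an unadjusted p under 0.05, 52 nearest genes differed in young mice, 9.04% beside 6.63% of all genes, and 46 in old mice, 8.0% beside 7.16%. The interaction, which sets the old mice's RNA response to training against the young mice's, was called at 0 genes (0%) by edgeR, with 56 nearest genes at an unadjusted p under 0.05, 9.74% beside 7.20% of all genes, and at 0 nearest genes by DESeq2.

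The nearest genes had a median log2 RNA difference of -0.05 in young mice, with 31.7% above 0, where all genes had -0.01 and 48.4%. In old mice it was 0.04 with 63.7% above 0, where all genes had -0.0022 and 49.4%. For genes of exonic members the medians were -0.08 and 0.07, and for genes of intergenic members -0.02 and 0.03. Nearest genes had more RNA than the rest, with a median of 39.8 CPM beside 23.3. Across 575 nearest genes, the H2A.Z and RNA training differences had a Spearman rho of -0.13 in young and 0.19 in old mice. H2A.Z and RNA came from separate libraries, and the genes are not independent replicates.

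At Dusp5, the early gene whose member lost H2A.Z past FDR 0.05, RNA was 12.4, 6.64 and 6.87 CPM in the young naive libraries and 14.9, 13.4 and 12.9 in the young conditioned libraries. In old mice it was 8.20, 8.53 and 10.8 CPM naive and 12.5, 12.2 and 11.1 CPM conditioned. The conditioned libraries were above the naive ones without overlap at both ages, although the young naive library 79 came close. The log2 change was 0.70 (SE 0.19) in young and 0.38 (SE 0.19) in old mice, with edgeR adjusted p of 0.73 and 0.71. Without library 79 the young change was 1.03 (SE 0.15, edgeR adjusted p 0.0069), and Dusp5 was then the 1 nearest gene called, among 13 genes of all that rose and 3 that fell. That setting leaves 2 young naive libraries, and since library 79 held the highest naive value of Dusp5, leaving it out raises the change by construction. With all libraries the H2A.Z difference was below 0 and the RNA difference above 0, and only the first passed its threshold.

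Gadd45b, a stress-inducible factor of DNA repair and demethylation, had 7.25 ± 1.88 CPM (SD, n = 3) in young naive and 10.5 ± 1.1 in young conditioned libraries. Csrnp1, a nuclear protein induced early, had 8.24 ± 0.254 and 11.2 ± 2.03 CPM. Their edgeR adjusted p was 0.73 for both. Averaged over ages and without library 79, Gadd45b had a log2 change of 0.66 (edgeR adjusted p 0.021), Dusp5 0.71 (0.0027) and Ddit4 0.51 (0.0026), and these were the 3 nearest genes called. Library 79 was the highest young naive library at each of them, so these calls are no support for a change. With all libraries the edgeR adjusted p was 0.25, 0.42 and 0.12. Klf10, a zinc finger factor, had 23.4 ± 3.58 and 26.0 ± 2.40 CPM, with overlapping groups. Maff did not pass the filter on low counts. Of the 46 listed early genes 44 were tested, and 4 rose in young mice, 2 in old mice and 11 averaged over ages, none of them nearest to a member. The nearest genes as a whole were highest in library 79 among young naive libraries at 32.5%.

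Ddit4 RNA was 40.1 ± 8.1 CPM (SD, n = 3) in young naive and 51.4 ± 4.57 in young conditioned libraries, and 37.4 ± 4.07 and 52.1 ± 3.70 in old mice. Bhlhe40 RNA was 102 ± 16.9 and 119 ± 13.0 CPM in young mice. Ntrk2 RNA did not separate the groups, at 697 ± 23.2 CPM in young naive and 697 ± 14.8 in young conditioned libraries, while the H2A.Z peak in its intron passed FDR 0.05. Of 42 tested genes of enhancer machinery, 0 were called after training at either age by edgeR, with 6 at an unadjusted p under 0.05 in young mice and 4 in old mice. DESeq2 called 0 of them in both.

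**Figure D5:**
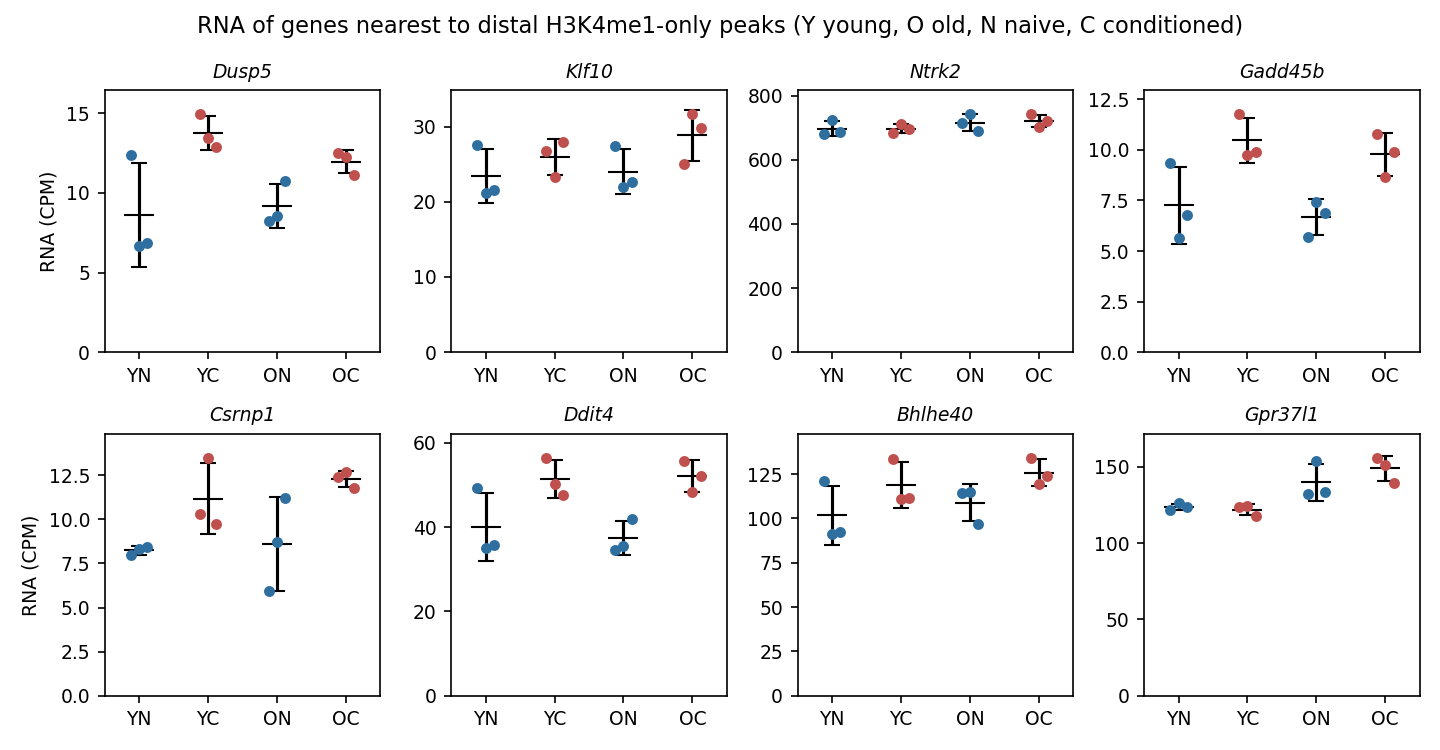
RNA in CPM of 8 genes nearest to H3K4me1-only peaks in 12 libraries, with points for libraries and bars for the mean ± SD of 3, from young naive (YN) and young conditioned (YC) to old naive (ON) and old conditioned (OC). Dusp5 is higher in conditioned libraries at both ages without passing the test, and Gpr37l1 is higher in old libraries.

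With age, averaged over conditions, RNA was higher in old mice by edgeR at 2 of 575 nearest genes, Gpr37l1 among them, where 21 of all 14405 genes were higher (0.146%) and 33 lower (0.229%). Gpr37l1, an orphan receptor of astrocytes, had 124 ± 2.23 CPM in naive and 122 ± 3.43 in conditioned libraries of young mice, and 140 ± 12.2 and 149 ± 8.36 in those of old mice. Its log2 change was 0.23 (SE 0.05, edgeR adjusted p 0.046). The old libraries were all above the young ones.

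The Gpr37l1 call was near the threshold: it passed in 5 of 15 alternative settings, with an adjusted p of up to 0.14. The H2A.Z difference of its peak with age did not pass the test, at -0.97 in naive mice (FDR 0.64) and 0.19 in conditioned mice (FDR 1.00) in the authors' deposited table. In naive mice alone 0 nearest genes were called by edgeR (62 at an unadjusted p under 0.05, 10.8% beside 10.3% of all genes), where 5 of all genes rose (0.0347%) and 3 fell (0.0208%). In conditioned mice 0 were called (112 at an unadjusted p under 0.05, 19.5% beside 13.4% of all genes), where 5 of all genes rose (0.0347%). DESeq2 called 11 nearest genes higher and 1 lower, where 64 and 35 of all genes were. It gave no adjusted p for 444 of 647 nearest genes and 15895 of all 19520 genes in that comparison.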

How the data were processed

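The peaks, the gene lists and the tests were chosen with earlier results of these data known. The RNA data are read counts per gene symbol, unnormalized, as the authors deposited them. The authors' deposited H2A.Z data are a single table of consensus peaks, with coordinates taken as mm10, log2 folds and log2 concentrations per group, a p-value and FDR per fold, and the number of libraries in which each peak was called. The submitters' processing notes name, without roles, the peak tools MACS2 2.0.10, DiffBind 1.12.2 and edgeR 3.8.6, the aligners TopHat and Bowtie2 2.2.1, the counter HTSeq 0.6.1p2, read trimming by cutadapt and Trim Galore 0.4, and both mm9 and mm10. The strand setting, the scaling of the folds and the source of the histone mark regions were not given in the sources used here. Without a strand setting, reads from a gene and an antisense partner cannot be told apart.

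The sign of the folds was set so that naive is subtracted from conditioned and young from old, and they were summarised without a test of their own. An implied standard error was the fold divided by the normal deviate of its p-value. RNA counts were tested in R 4.3.3 with edgeR 4.0.16 (quasi-likelihood, TMM, filterByExpr, 1 fit of the 4 groups, Benjamini-Hochberg over all 14405 genes, threshold 0.05). Library totals were 9410843 to 13350561 counts. Libraries of the same group differed by more than counting noise gives, with a chi-square per degree of freedom of 4.50 to 16.8 between pairs. The precision of the RNA test therefore rests on the spread between libraries as well as on depth. The edgeR test was also run on simulated counts for the young training comparison (14412 genes). It recovered 35, 42, 47 and 48 of 50 genes changed by 0.5, 1, 1.5 and 2 on the log2 scale, with 10 false calls. In the real young libraries edgeR called 4 genes, and Arc, with a log2 change of 0.90, had an edgeR adjusted p of 0.73. The simulated recovery is therefore no estimate of the power of the test on the real libraries. Other settings were DESeq2 1.42.0, upper-quartile factors, no filter, each library left out, nearest genes within 100 kb, other FDR limits, stricter overlap, distance and calling rules, and folds minus the median of all peaks. The splits by annotation, level, distance and neighbouring mark, the promoter windows, and the differences of deposited levels were added after the data were seen.

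Members were named by rule: the 3 largest rises and falls past FDR 0.05 in each comparison, the 5 highest and 3 lowest young naive levels, members of the early-gene and enhancer-machinery lists, and genes with most members. Psen2, Psmd9, Bhlhe40, Ddit4, Lif, Ache, Abr, Rbms3, Smad5, Ntrk2, Umodl1, Uaca, Dlgap3, Rbfox3 and Fibcd1 were named after their values were seen. Sequences are from RefSeq promoter windows, assembly GRCm38.p6. Some genes that the rule names are not reported here. The 12 input libraries were not analysed here. Tables were handled with pandas 2.3.3 and scipy 1.17.1 in Python 3.11.15, and plots drawn with matplotlib 3.10.9.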

Additional observations from a re-analysis of the deposited data

How the results depend on the processing

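Against the median of all peaks, the members' median H2A.Z difference turned from -0.48 to 0.0895 for training in young mice, from -0.30 to 0.63 for training in old mice and from 0.04 to -0.29 for age in naive mice. For age in conditioned mice it went from 0.18 to 0.0933. The share of members lower then was 46.9%, 24.7%, 75.8% and 43.9%, in place of 67.7%, 63.3%, 47.2% and 38.9%. From deposited levels, the medians were -0.52 for training in old mice and 0.37 and 0.30 for age in naive and conditioned mice. Among the 143 members called in 3 libraries of a group, the medians were -0.65, -0.64, 0.11 and 0.10, with 24 lower and 0 higher in young and 0 lower in old mice. That choice uses the same reads as the folds, and a peak can pass through the group where it is high. In young mice 87 members were called in all 3 naive libraries and 55 in all 3 conditioned, and in old mice 41 and 31. These medians are therefore tied to the choice. Members inside or including the H3K4me1 region had -0.63 for training in young mice. At FDR 0.01, 37 members were lower and 0 higher in young and 0 lower in old mice. At FDR 0.1, 4 were higher in young and 7 lower in old mice.

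The exonic medians, 0.03 in young and 0.06 in old mice, turned to -0.12 and -0.02 for peaks inside or including the H3K4me1 region and to -0.24 and -0.27 for those called in 3 libraries. Intergenic members called lower in young mice went from 57 to 26 at FDR 0.01 and 14 when called in 3 libraries. Exonic ones went from 10 to 3 in both, to 16 at FDR 0.1 and to 6 with no other mark within 1000 bp. The intergenic median was below the exonic one in each of these settings.

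The nearest genes called higher with age, averaged over conditions, were 2 by edgeR and 10 by DESeq2, where 21 and 107 of all genes were. They were 0 with upper-quartile factors, 5 without a filter and 0 to 16 with a library left out, the highest without young naive library 81. Of those lower, 0 to 5 were called with a library left out. For age in conditioned mice DESeq2 called 11 higher and 1 lower, where 64 and 35 of all genes were. For training averaged over ages, DESeq2 called 1 higher and 1 lower, no filter gave 1 higher, and leaving out a library gave 0 to 3. Leaving out a library gave 0 to 1 for training in young and for age in naive mice. The cause of these changes was not tested. Counts over all genes are not given beside most of these settings, so the counts are no result about the nearest genes. The call of Gpr37l1 was kept in 5 of 15 settings. Over all members and all nearest genes, the other counts and medians recomputed kept their direction and stayed within 1.5 times or 1 SD.

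The search for motifs in 300 or 500 bases around the peak centres was not run, as no genome was used here. No paired analysis was possible because the RNA libraries share no replicate number, and the H2A.Z table holds no value per library. The H2A.Z calls could not be repeated without single libraries for that reason, and low levels at the members limit what the folds can show.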

Other observations

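A further 3 of the members that lost H2A.Z past FDR 0.05 in young mice are given here, chosen after their values were seen. Klf7, a zinc finger factor of neurons, had a peak 100615 bp from its start with levels of 4.61 in naive and 1.76 in conditioned young mice in the authors' deposited table (log2 difference -2.85, FDR 0.012). The somatostatin receptor gene Sstr5 had an intergenic peak with 4.79 and 2.51 in young mice (FDR 0.037), and in old mice its fold was -0.0008 (FDR 1.00), in the authors' deposited table. An intronic peak of Creb3l1, a membrane-bound factor of the CREB family, had 5.47 and 3.36 in young mice (FDR 0.015) in the authors' deposited table, and it was called in 3 young naive and 0 young conditioned libraries. RNA of Klf7 was 20.6 ± 3.38 CPM (SD, n = 3) in young naive and 19.0 ± 2.30 in young conditioned libraries, and RNA of Creb3l1 was near 2.56 and 2.26 CPM.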
